A study of Mus musculus with 474 samples.

Results

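Excitation-contraction coupling genes and regulators of the sarcoplasmic reticulum calcium pump were examined as a set of 8 genes, taken by symbol from 20612 genes measured in mouse skeletal muscle. The set holds 2 pump regulators, Sln (sarcolipin) and Pln (phospholamban), and 6 genes of the coupling complex, Ryr1, Cacna1s, Stac3, Jph1, Jph2 and Cacnb1. The libraries came from Diversity Outbred mice, a stock bred by crossing 8 founder strains so that each animal is genetically distinct. All animals were kept on a high-fat, high-sugar diet (45% fat), and no group on another diet was analysed here. Each animal gave 1 library, labelled female or male, and the titles hold a number (17, 18, 19, 21 or 23) read here as the generation of the stock. The generations named in the study's methods cover only some of these numbers, so the reading is uncertain and a generation below means the number in the title. In that order there were 48, 45, 49, 46 and 47 female libraries and 46, 48, 50, 47 and 48 male libraries. The muscle was the gastrocnemius according to the study's methods, and whole frozen tissue was pulverised, so fewer cells of a type and less RNA per cell cannot be told apart in any value below. All p-values measure the spread between animals.

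In a skeletal muscle fibre the action potential is sensed by the L-type calcium channel of the transverse tubule, whose pore and voltage sensor is encoded by Cacna1s, whose beta subunit is encoded by Cacnb1 and whose adaptor is Stac3. The sensor opens the ryanodine receptor Ryr1, the calcium release channel of the sarcoplasmic reticulum, across a junction that the junctophilins Jph1 and Jph2 hold together. Calcium is pumped back by the SERCA pumps, Atp2a1 in fast fibres and Atp2a2 in slow fibres and heart, and the small membrane proteins phospholamban and sarcolipin lower the activity of these pumps.

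Promoter windows are shown for Pln, the member whose level varied most between animals on a log-like scale, and for Cacna1s and Ryr1, the pair of members whose levels moved together most closely. Each window runs from 250 bases before to 50 bases after a RefSeq transcription start (build GRCm38.p6), and capitals mark E-boxes (CANNTG), the motif that myogenic factors such as MyoD can bind. The Pln window is chr10:53337436-53337735 on the plus strand, the Cacna1s window chr1:136052561-136052860 on the plus strand, and the Ryr1 window chr7:29125102-29125401 on the minus strand.
Pln: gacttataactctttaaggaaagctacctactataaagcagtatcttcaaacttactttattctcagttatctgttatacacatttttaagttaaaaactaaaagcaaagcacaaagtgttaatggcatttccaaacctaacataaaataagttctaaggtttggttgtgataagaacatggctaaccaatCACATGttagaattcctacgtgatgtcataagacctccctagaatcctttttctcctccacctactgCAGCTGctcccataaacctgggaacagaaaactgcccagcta
Cacna1s: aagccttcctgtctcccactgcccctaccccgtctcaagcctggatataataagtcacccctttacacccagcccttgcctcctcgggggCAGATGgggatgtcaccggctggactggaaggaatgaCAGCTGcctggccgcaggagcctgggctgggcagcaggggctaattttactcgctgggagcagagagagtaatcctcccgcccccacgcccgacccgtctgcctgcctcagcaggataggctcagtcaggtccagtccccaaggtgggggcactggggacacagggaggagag
Ryr1: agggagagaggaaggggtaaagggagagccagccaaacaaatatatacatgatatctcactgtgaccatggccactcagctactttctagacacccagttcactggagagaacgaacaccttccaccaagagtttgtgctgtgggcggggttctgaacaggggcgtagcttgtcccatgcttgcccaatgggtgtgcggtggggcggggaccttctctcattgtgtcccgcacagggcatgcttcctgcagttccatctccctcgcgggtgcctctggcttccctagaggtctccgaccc
RefSeq windows were matched for 5 of the 8 members, 7 windows in all. The Pln window held 2 E-boxes, the Cacna1s window 2 and the Ryr1 window 0, and 72.3% of the 32851 RefSeq windows of this length held at least 1. The letters TATAAA, searched on both strands as the E-box was, occurred once in the Pln window and in 13.6% of all windows. The MEF2 and CArG motifs, found in 0.557% and 1.63% of all windows, occurred in none of the 7 windows. GC content was 36% in the Pln window, 63% in the Cacna1s window and 56.7% in the Ryr1 window, against a median of 52.7% over all windows.

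The genes lie on 6 chromosomes of GRCm38. Sln spans chr9:53850164-53854560, Pln chr10:53337667-53345987, Ryr1 chr7:29003344-29125179, Cacna1s chr1:136052750-136119822, Stac3 chr10:127501686-127508823, Jph1 chr1:16964560-17097889, Jph2 chr2:163336242-163397993 and Cacnb1 chr11:98001508-98023034. Exons of 3 members overlap those of a gene on the opposite strand. Pln shares exon bases with Cep85l, Ryr1 shares 864 with Gm26604 and Cacna1s 1309 with Gm37759. The counts were not stated to use strand, so reads in these bases could have come from either gene.

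Library depth ranged from 35.9 to 165.7 M counts (mean 81.5 ± 16.2 M, SD over all libraries), and the median was 79.3 M in each sex. The sex-linked RNA of 5 libraries, 3 labelled female and 2 labelled male, went against the label. Each call of a member between the sexes was the same without them, and Sln then differed by -0.88 and Pln by 0.43 on the log2 scale. Library numbers fell into 5 blocks of consecutive numbers with 91 to 96 libraries each. What the numbers stand for is not stated in the labels, and they are called library blocks here.

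Levels of the 8 genes covered a wide range. Per kilobase of exon, Ryr1 was highest with a median of 364.9 CPM (counts scaled to a common library size) per kb, followed by Cacna1s (214.9), Jph2 (116.9), Jph1 (80.2), Stac3 (71.7), Cacnb1 (26.6), Pln (1.45) and Sln (0.493). Ryr1 exceeded Cacna1s, Cacna1s exceeded Jph2 and Stac3 exceeded Cacnb1 in every library. The junctophilins were closer, Jph2 exceeding Jph1 in 95.6% of libraries with a median ratio of 1.47. Jph1 and Stac3 were the neighbours whose spreads overlapped most, with Jph1 higher in 79.1% of libraries and a median ratio of 1.12. Pln exceeded Sln in 86.1% of libraries. The fast-fibre pump Atp2a1 stood at 10203 CPM per kb and the slow-fibre pump Atp2a2 at 114.2 CPM per kb, on the same scale.

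The 6 coupling genes varied little between animals and both pump regulators varied widely. The coefficient of variation of CPM over all libraries was 10.9% for Stac3, 11.8% for Ryr1, 12.2% for Jph1, 13.3% for Cacna1s, 15.1% for Cacnb1 and 15.5% for Jph2. It was 119.8% for Pln and 122.5% for Sln, and 41.3% for Myh7, the slow myosin heavy chain. On the deposited variance-stabilised (VST) scale, whose unit is close to log2 for well expressed genes, the SD of Pln was 1.17, above that of 99.1% of the 18823 genes tested. The SD of Sln was 0.549, above that of 95% of genes, while the coupling genes had SDs from 0.155 to 0.224 around the median gene's 0.209. Sln was also a low-count gene, with a median of 52 counts per library, 1 library at 0 and 2 libraries at 3 counts or fewer.

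**Figure D1:**
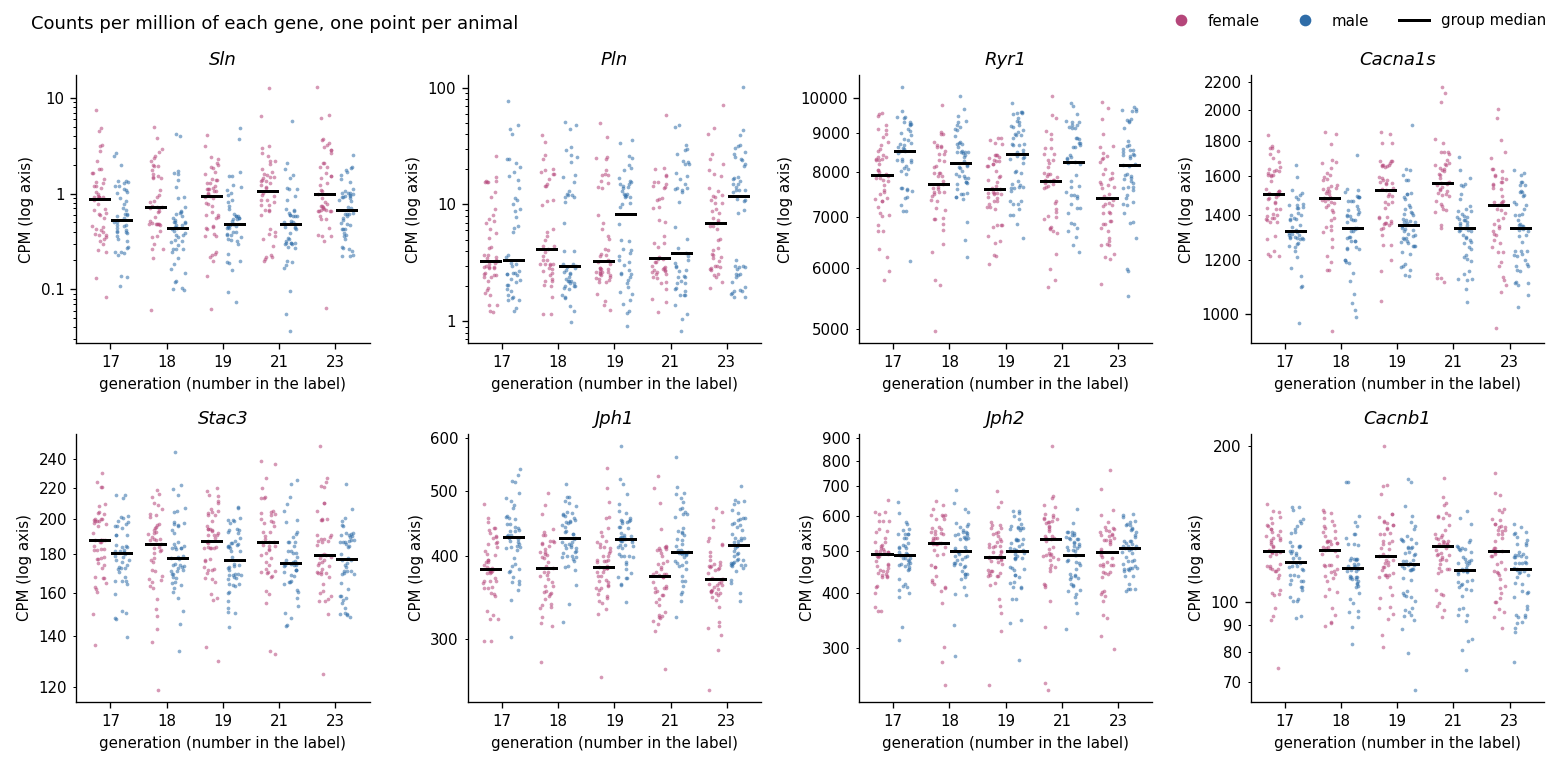
Level of each of the 8 genes in CPM on a log axis (y) against the generation number (x), one point per animal, females red and males blue, with black bars for group medians and without the male library whose Sln count was 0. In all 5 generations the male median lies below the female median for Sln and Cacna1s and above it for Ryr1 and Jph1, and the points of Pln form an upper and a lower group.

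The comparison of the sexes asked whether the RNA of these genes differed between males and females of the stock. Of the 8 members, 7 were called between the sexes (edgeR's quasi-likelihood F-test with generation as covariate, Benjamini-Hochberg adjustment over all genes), 3 higher and 4 lower in males, and Jph2 was not called. The background was high, since 55% of all genes (10362 of 18823) were called, 24.4% higher and 30.6% lower in males. The median log2 difference, male minus female, was -0.04 over the members and -0.01 over all genes. Of the genes called, 44.3% were higher in males, and 30.8% when libraries were scaled by their total alone.

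With generation as the only covariate, sarcolipin was the member with the largest difference between the sexes. In females Sln had a lowest value of 0.061, a median of 0.921 and a highest of 13.02 CPM, and in males 0, 0.503 and 5.71 CPM. The ranges overlapped from 0.061 to 5.71 CPM, and the male median lay below the female median. The log2 difference, male minus female, was -0.88 ± 0.11 (SE), or 0.543-fold (adjusted p = 4.85e-13, edgeR), and its absolute size exceeded that of 97.6% of genes. On the VST scale, which compresses low counts such as those of Sln, the difference was -0.34 (adjusted p = 3.5e-11, limma). Sln was lower in males in all 5 generations, by log2 differences from -1.15 to -0.56, and in all 5 library blocks, from -1.16 to -0.67. The slow-fibre markers moved with sex, and their score was therefore added to the fit. All 7 slow-fibre genes on the list were called lower in males, against 30.6% of all genes. Their sum had a median of 2875 CPM in females (range 455.9 to 8618) and 1877 CPM in males (554.4 to 7153). With the slow-fibre score as a covariate the Sln difference was -0.44 (adjusted p = 0.000847, edgeR).

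Phospholamban differed in the opposite direction. In females Pln ranged from 1.15 to 71.6 CPM with a median of 3.78, and in males from 0.821 to 101.4 CPM with a median of 4.20. The medians were close and the male mean was higher, at 11.3 ± 13.4 CPM (SD over all males) against 8.47 ± 9.89 CPM (SD over all females). The fitted log2 difference was 0.43 ± 0.14 (adjusted p = 0.0044, edgeR), and its 95% interval ran from 0.16 to 0.69. On the VST scale, which weighs the highest values less, the difference was 0.19 and was not called (adjusted p = 0.113, limma). Pln was higher in males in all 5 generations, by 0.18 to 0.88 on the log2 scale, and in 4 of 5 blocks. In the remaining block it was -0.48 ± 0.32 (adjusted p = 0.275, edgeR). Within single generations and blocks, Pln was called in generation 17 and in block 2 alone (adjusted p = 0.0219 and 0.0348, edgeR). With the slow-fibre score as a covariate the difference was 0.71 (adjusted p = 9.58e-06, edgeR).

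The calcium release channel and the voltage sensor, partners in the same junction, moved in opposite directions between the sexes. Ryr1 ranged from 4959 to 10045 CPM in females with a median of 7722, and from 5520 to 10336 CPM in males with a median of 8345. Its log2 difference was 0.10 ± 0.015 (adjusted p = 2.97e-10, edgeR), higher in males in all 5 generations and all 5 blocks. Cacna1s ranged from 942 to 2166 CPM in females with a median of 1507, and from 969 to 1903 CPM in males with a median of 1339. Its log2 difference was -0.16 ± 0.016 (adjusted p = 2.98e-19, edgeR), lower in males in all 5 generations and all 5 blocks, and it was called within each of these 10 strata. The ranges of the sexes overlapped broadly for both genes.

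The channel's partners were also lower in males. Cacnb1, the beta subunit, had a median of 125.4 CPM in females (74.4 to 200.03) and 116.9 CPM in males (67.5 to 172.3), a log2 difference of -0.10 ± 0.020 (adjusted p = 3.17e-06, edgeR). Stac3 had a median of 186.6 CPM in females (118.9 to 250.2) and 177.5 CPM in males (134.0 to 245.7), a log2 difference of -0.05 ± 0.014 (adjusted p = 0.000987, edgeR). Both were lower in males in all 5 generations and all 5 blocks, but few of these differences were called. Cacnb1 was called within 2 generations and 2 blocks, and Stac3 within 0 generations and 2 blocks (edgeR). The Stac3 difference was smaller in size than that of most genes, exceeding 30.6% of them.

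Of the junctophilins, Jph1 was called and Jph2 was not. Jph1 had a median of 379.1 CPM in females (251.1 to 541.02) and 420.8 CPM in males (302.1 to 584.9), and its log2 difference of 0.15 ± 0.015 (adjusted p = 2.27e-21, edgeR) held in all 5 generations. Jph2 had a median of 497.9 CPM in females (241.3 to 864.5) and 495.2 CPM in males (282.4 to 685.96). Its log2 difference was -0.02 ± 0.021 with a 95% interval from -0.06 to 0.02 (adjusted p = 0.435, edgeR). Scaled by the total count alone it was -0.05 and was called (adjusted p = 0.037). The difference between the sex effects of Jph1 and Jph2 was not tested.

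The pumps and the other pump regulators, a pair of small peptides, were set beside the members. Atp2a1 had a mean of 36742 ± 4086 CPM (SD) in females and 34217 ± 3380 CPM in males (log2 difference -0.10 ± 0.014, adjusted p = 9.81e-12, edgeR). Atp2a2 had 834.2 ± 241.5 CPM in females and 646.4 ± 188.99 CPM in males (-0.37 ± 0.038, adjusted p = 1.62e-19, edgeR). Both pumps were lower in males. Mrln, which encodes myoregulin, a pump inhibitor of fast muscle, was higher in males by 0.35 ± 0.035 (adjusted p = 1.79e-20, edgeR). Strit1, which encodes the pump activator DWORF, was lower in males, with a log2 difference of -0.48 ± 0.055 (adjusted p = 3.32e-16, edgeR).

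A wider list of 66 calcium-handling genes, which includes both pumps, Mrln and Strit1 but none of the members, had 65 genes tested. Of these, 29 were higher and 18 lower in males and 18 were not called, 72.3% called against the background of 55%. Besides the pumps, Mrln and Strit1, the 5 largest called differences in size were those of Ryr3, Stac2, Casq2, Cacnb4 and Atp2b2. The ryanodine receptor isoform Ryr3 rose from a mean of 1.16 CPM in females to 1.93 CPM in males (log2 difference 0.72 ± 0.066, adjusted p = 1e-23, edgeR). Casq2, the calsequestrin of slow fibres and heart, fell from 29.9 to 22.3 CPM (-0.43 ± 0.045). Cacnb4, another channel beta subunit, fell from 1.13 to 0.881 CPM (-0.36 ± 0.052), and Stac2, a relative of Stac3, from 0.370 to 0.262 CPM (-0.49 ± 0.097). Atp2b2, a plasma membrane calcium pump, rose from 0.385 to 0.480 CPM (0.32 ± 0.058). The members differed by less than Ryr3 did, apart from Sln.

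No member was called between generations (0 of 8, edgeR, against 7.56% of all genes), and DESeq2 and limma called 0 as well. At an unadjusted p under 0.05 the count was 2 by DESeq2, 3 by limma and 1 by edgeR, the last being Pln, whose fitted levels differed by 0.65 on the log2 scale between the highest and the lowest generation (p = 0.0323, adjusted p = 0.195, edgeR). Its median was 3.31 CPM in generation 17, 3.36 in 18, 4.06 in 19, 3.64 in 21 and 8.49 in 23. The generation medians of Sln were between 0.513 and 0.814 CPM, with a fitted range of 0.46 (adjusted p = 0.26, edgeR). The coupling genes had fitted ranges of 0.03 to 0.07. The sex difference was not called as varying between generations for any member (0 of 8, edgeR, 0 at an unadjusted p under 0.05, against 0.531% of all genes, and 0 by limma).

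Levels were also compared between the library blocks, which separated many genes of the whole table. Between blocks, with sex and generation as covariates, 5 of 8 members were called, against 47.4% of all genes. Jph2 had the largest fitted range of these, 0.28 on the log2 scale (adjusted p = 1.72e-19, edgeR), with a median of 436.6 CPM in block 1 and 497.7 to 518.8 CPM in the other blocks. The ranges of Ryr1, Stac3, Jph1 and Cacnb1 were 0.07 to 0.10, against a median of 0.18 over all genes. Sln (adjusted p = 0.208), Pln (0.577) and Cacna1s (0.0573) were not called by edgeR. Scaled by the total count alone, Cacna1s was called between blocks (adjusted p = 0.00306, edgeR). The member calls between the sexes were the same with block as a further covariate.

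The relation of Sln and Pln to the slow myosin heavy chain Myh7 was then examined. Myh7 itself had a median of 1449 CPM in females and 940.9 CPM in males (log2 difference -0.62 ± 0.045, adjusted p = 2.61e-35, edgeR). With sex and generation in the fit, 3 of 8 members were called for a slope on the Myh7 level, against 6.48% of all genes, 3.56% with a positive and 2.92% with a negative slope. Sln rose by 0.81 ± 0.10 on the log2 scale per unit of Myh7 (adjusted p = 5.51e-12, edgeR) and ranked 61 of 18822 genes by p. On the VST scale its slope was 0.33 (adjusted p = 1.26e-09, limma). Pln rose by 0.48 ± 0.13 (adjusted p = 0.0101). Jph1 fell, with a slope of -0.05 ± 0.015 (adjusted p = 0.0261). The slopes of the other 5 members were between -0.04 and 0.03 and were not called.

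In place of Myh7, a score of the other slow-fibre genes gave slopes for Sln and Pln that were both called (adjusted p = 1.73e-11 and 0.000211, edgeR). Jph1 was then not called (adjusted p = 0.184) and Cacna1s was (adjusted p = 0.0222, negative). Of the genes called with Myh7, 55% had a positive slope, and 68.2% when scaled by the total alone. No member's slope was called as differing between the sexes (0 of 8 by edgeR, against 2.11% of all genes, 1.52% with a higher and 0.590% with a lower slope in males, and 0 by limma). At an unadjusted p under 0.05 the count was 2 by limma and 1 by edgeR, Cacnb1 (p = 0.00975, adjusted p = 0.197). The Sln slope was 0.80 ± 0.16 in females and 0.78 ± 0.13 in males. That of Pln was 0.29 ± 0.18 in females and 0.71 ± 0.20 in males, and the difference of 0.47 had a 95% interval from -0.05 to 0.99.

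The slow-fibre pump Atp2a2 and the pump activator Strit1 were also called with Myh7. Their slopes were 0.75 ± 0.019 (adjusted p = 1.47e-148, edgeR) and 0.86 ± 0.042 (adjusted p = 7.55e-63). Atp2a1 had a slope of -0.04 ± 0.015 that was not called (adjusted p = 0.091), and Mrln one of -0.10 ± 0.036 (adjusted p = 0.0534). On the wider list of calcium-handling genes, 6 had a called positive slope and 11 a called negative slope of 65 tested, 26.2% called against 6.48% of all genes. The positive ones included Casq2 (0.46, adjusted p = 8.58e-23) and the scaffold gene Homer2 (0.30, adjusted p = 1.8e-18).

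Over libraries, Sln and Myh7 had a Pearson r of 0.311 (Spearman rho 0.302, over all libraries) after sex and generation were removed from the VST score. Permutation gave p = 1e-05, the smallest that 100000 resamples allow, and adjusted p = 2.57e-05 over the 36 pairs computed. Without the 2 libraries farthest from the Myh7 median r was 0.293, and within the 5 blocks it ran from 0.208 to 0.440. Pln and Myh7 had r = 0.138 and rho = 0.131 (permutation p = 0.00279, adjusted p = 0.00529), and 0.128 without the 2 farthest libraries. Within blocks the Pln value ran from -0.0006 to 0.278, and it was 0.0907 in females (adjusted p = 0.249, permutation) and 0.177 in males (adjusted p = 0.013, permutation). It did not hold in every block. On the same scale Jph1 (r = -0.157, adjusted p = 0.00112, permutation), Cacna1s (r = -0.119, adjusted p = 0.0167) and Jph2 (r = -0.107, adjusted p = 0.0300) were past the threshold against Myh7. For Cacna1s the sign turned with no covariate removed (r = 0.130, adjusted p = 0.00868, permutation), and it was not past the threshold in females. Jph2 was not past it by Spearman's rho (adjusted p = 0.286, permutation), on log2 CPM, with no covariate removed or in males. Within blocks these 3 genes were past it in block 3 alone. Ryr1, Stac3 and Cacnb1 were not past it over all libraries, but each was in some of the alternatives, Ryr1 with no covariate removed (r = -0.182) and in block 3, Stac3 in blocks 3 and 4, and Cacnb1 with no covariate removed (r = 0.188), in males (r = 0.175) and in block 5.

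**Figure D2:**
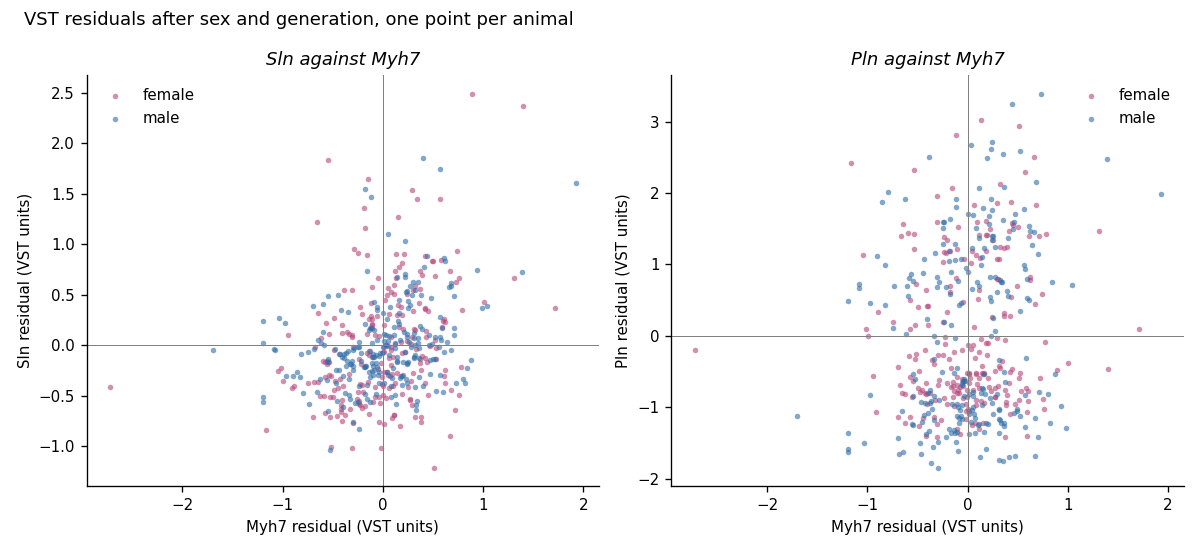
VST residuals of Sln (left) and Pln (right) on the y axes against those of Myh7 on the x axes, after sex and generation were removed, one point per animal, females red and males blue. The Sln points rise with Myh7 (r = 0.311), and the Pln points form an upper and a lower band with a weaker rise (r = 0.138).

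The levels of Pln fell into a lower and an upper range. The density of its VST score over all libraries had peaks at 8.43 and 10.4 and a trough at 9.50. The trough stood at 31.6% of the density of the lower peak and 62.7% of that of the upper peak. The 40.3% of libraries above it had a median of 15.8 CPM, and those below it a median of 2.66 CPM, while 29 libraries lay within 0.25 units of the trough. These sides were drawn after the values had been seen, and they are not groups of the study.

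Above the trough were 34.5% of females (95% Wilson interval 28.7 to 40.8%) and 46% of males (39.8 to 52.4%), a difference with p = 0.0122 and adjusted p = 0.0366 over 3 labels tested (permutation test). By generation the share was 31.9% in 17, 36.6% in 18, 39.4% in 19, 39.8% in 21 and 53.7% in 23 (permutation p = 0.0342, adjusted p = 0.0513). By library block it ran from 31.9% to 46.9% (permutation p = 0.341). Animals of both sexes and of all 5 generations stood on both sides.

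**Figure D3:**
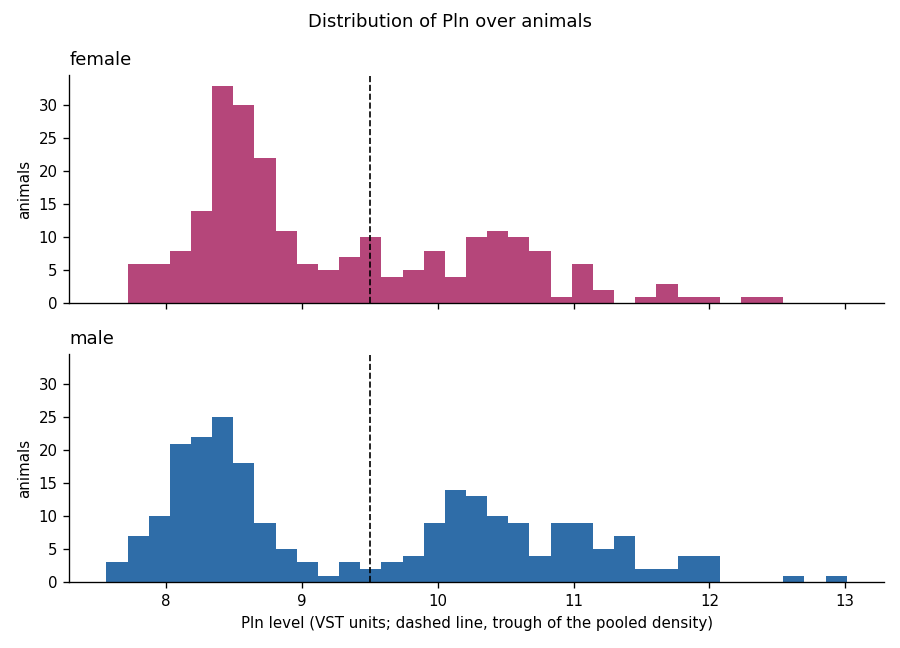
Number of animals (y) by Pln level in VST units (x), females above and males below, with the trough of the pooled density as a dashed line at 9.50. Both sexes have a lower and an upper peak, with 34.5% of females and 46% of males above the line.

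The spread of levels between animals was compared between the sexes. Of the 8 members, 2 were called for a difference in absolute deviation from the group median on the VST scale (limma, against 5.55% of all genes, 1.75% wider and 3.80% narrower in males). Sln varied less in males, with a mean absolute deviation of 0.449 in females and 0.306 in males (adjusted p = 0.00123, limma). Pln varied more in males, at 0.806 in females and 1.08 in males (adjusted p = 0.0126, limma). On log2 CPM, Sln was not called (adjusted p = 0.211, limma). Jph2 had 0.181 in females and 0.142 in males and was not called (adjusted p = 0.0761, limma), but was called once library block was removed (adjusted p = 0.0367).

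The coupling genes were correlated with one another over animals. Of the 15 pairs among Ryr1, Cacna1s, Stac3, Jph1, Jph2 and Cacnb1, 13 had a positive r past the threshold, 0 a negative one, and 2 were not past it (permutation tests, adjusted over the 36 pairs). The median r of the 15 pairs was 0.343, against -0.0009 over all pairs of genes tested. An r as high as the lowest of the 13 (Ryr1 with Jph1, 0.191) was found in 5.77% of all pairs. Each coupling gene had an absolute r of at least 0.2 with 12.6% to 27.7% of all genes. The share of all pairs past the threshold was not computed. The closest pair was Ryr1 and Cacna1s, the release channel and its voltage sensor, with r = 0.673 and rho = 0.622 (adjusted p = 2.57e-05, permutation), 0.661 without the 2 farthest libraries and 0.626 to 0.725 within blocks. Of all pairs of genes, 0.0536% had an r as high.

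Jph2 and Cacnb1 had r = 0.477 (0.313 to 0.658 within blocks), and Stac3 and Jph2 r = 0.462 (0.378 to 0.655 within blocks). Cacnb1 was about as close to the pore subunit as to the release channel, with r = 0.428 to Cacna1s and 0.424 to Ryr1. The junctophilins had no correlation with each other past the threshold (r = 0.00303, adjusted p = 0.947, permutation), but within blocks their r ran from -0.339 in block 1 to 0.355 in block 2, both past it (adjusted p = 0.00252 and 0.00228, permutation), and was 0.319 in block 4 (adjusted p = 0.00733). Jph1 and Cacnb1 had r = -0.0452 (adjusted p = 0.363, permutation). This pair was negative past the threshold in males alone (r = -0.150, adjusted p = 0.0340, permutation), in block 1 (r = -0.317, adjusted p = 0.00442) and with no covariate removed (r = -0.131, adjusted p = 0.00834). In females alone it had r = 0.0556 (adjusted p = 0.491, permutation), and the difference between the sexes was not tested. Other pairs of Jph1 also depended on the libraries and covariates. Ryr1 and Jph1 were not past the threshold in males alone (r = 0.0874, adjusted p = 0.238, permutation), in block 1 (r = -0.0247) or in block 4 (r = 0.198). Cacna1s and Jph1 were not past it in block 1 (r = -0.0271) or with no covariate removed (r = 0.00708, adjusted p = 0.878, permutation). Within single blocks Stac3 and Jph1 (block 1), Ryr1 and Jph2 (block 3), Cacna1s and Jph2 (block 3) and Stac3 and Cacnb1 (block 4) were not past it either. Jph1 was nearest to Stac3 among the members, with r = 0.351.

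The pump regulators had no positive relation to the coupling genes past the threshold. Of the 13 pairs that hold Sln or Pln, 0 had a positive r past the threshold, 6 a negative one, and 7 were not past it. Such values were not rare, since between 2.22% and 14.5% of all pairs of genes had an r as low as those of the 6. By Spearman's rho Sln with Stac3 (r = -0.102) and Sln with Jph2 (r = -0.108) were not past the threshold (adjusted p = 0.25 and 0.127, permutation), and Pln with Stac3 was (rho -0.103, adjusted p = 0.0409, permutation, against r = -0.0681, adjusted p = 0.178). On log2 CPM, Sln with Stac3 and with Jph2 had adjusted p = 0.0604 and 0.193 (permutation).

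The strongest of the 6 was Sln with Jph1, at r = -0.265 (rho -0.233, adjusted p = 2.57e-05, permutation, -0.519 to -0.113 within blocks). It was past the threshold in each sex but not in block 4 (adjusted p = 0.347, permutation) or block 5 (adjusted p = 0.392). Sln had r = -0.162 with Ryr1, past the threshold in each sex but in blocks 3 and 4 alone, with values from -0.367 to 0.0612 within blocks. Sln had r = -0.160 with Cacna1s, which was past the threshold in females (r = -0.207, adjusted p = 0.00274, permutation) and not in males (r = -0.0962, adjusted p = 0.191), nor with no covariate removed (r = -0.0217, adjusted p = 0.673). Within blocks it ran from -0.406 to 0.0203 and only block 3 was past it. Sln with Jph2 was likewise past the threshold in females and not in males (r = -0.0104, adjusted p = 0.898, permutation), and Sln with Stac3 in males and not in females (r = -0.0757, adjusted p = 0.329). With no covariate removed neither was past it, and within blocks Sln with Jph2 was past it in blocks 2 and 3 and Sln with Stac3 in block 3. Pln had r = -0.120 with Ryr1 (adjusted p = 0.0167, permutation, -0.283 to -0.0205 within blocks). It was past the threshold in males (r = -0.175, adjusted p = 0.0130, permutation) and not in females (r = -0.0590, adjusted p = 0.473), and in block 4 but in no other block. The differences between the sexes in these pairs were not tested. Of the pairs not past the threshold over all animals, Sln with Cacnb1 was past it in block 3 (r = -0.382, adjusted p = 0.000425, permutation) and Pln with Cacna1s in block 4 (r = -0.254, adjusted p = 0.0320).

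Sln and Pln had r = 0.0776 over all animals, not past the threshold (rho 0.0793, adjusted p = 0.131, permutation). In males alone it was 0.168 (adjusted p = 0.0171, permutation) and in females alone -0.00333 (adjusted p = 0.994, permutation), and the difference between the sexes was not tested. Within blocks it ran from -0.0695 to 0.235, and only block 2, with the highest, was past the threshold (adjusted p = 0.0426, permutation).

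**Figure D4:**
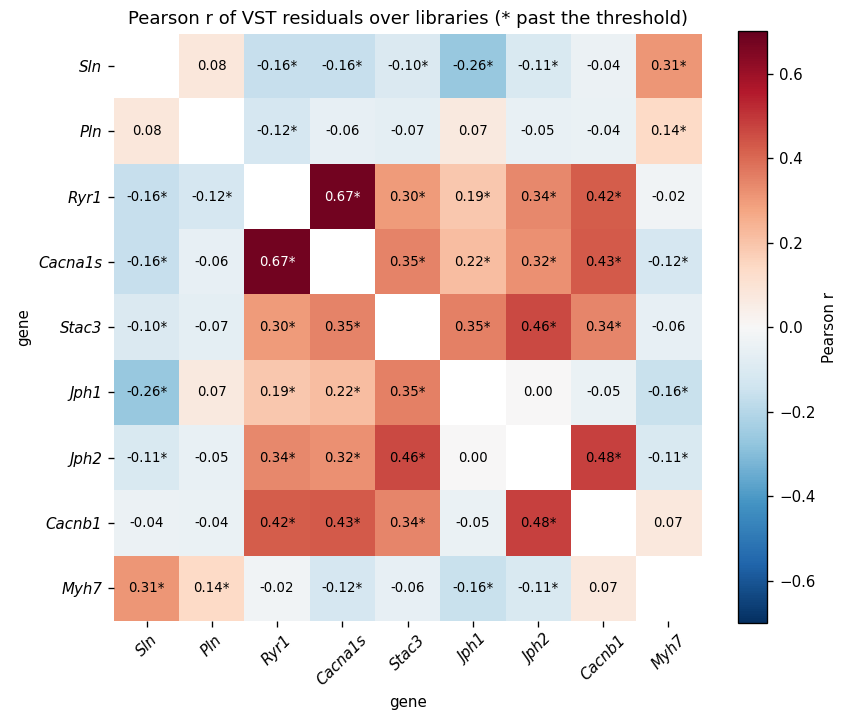
Pearson r of VST residuals over all libraries for each pair of the 8 genes and Myh7, after sex and generation were removed, red for positive and blue for negative values, with a star where the permutation p adjusted over 36 pairs is under 0.05. The 6 coupling genes have positive values past the threshold in 13 of their 15 pairs, with the highest at Ryr1 and Cacna1s (0.673) and the lowest at Jph1 and Cacnb1 (-0.0452), and the rows of Sln and Pln hold values near 0 or below it apart from Myh7.

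Markers of fibre types and of other cells were correlated with the coupling genes, positively or negatively. Over 80 relations computed between the 8 members and 10 measures, the score of 8 fast-fibre genes had a positive r with all 6 coupling genes, from 0.283 for Jph1 to 0.605 for Ryr1 (adjusted p = 4e-05 in each, permutation). The macrophage score had r = -0.414 with Jph1 (-0.542 to -0.302 within blocks). It was not past the threshold with Jph2 (r = -0.0136, adjusted p = 0.83, permutation) or Cacnb1 (r = -0.0977, adjusted p = 0.0712, permutation). The endothelial score had r between -0.267 and -0.150 with the 6 coupling genes, and the adipocyte score between -0.248 and -0.122. The macrophage markers summed to between 11.8 and 86.6 CPM, the endothelial markers to between 111.2 and 294.3 CPM. Pln had r = 0.172 with the slow-fibre score and -0.157 with the fast-fibre score, and Sln 0.313 and -0.123. The part of these markers in the correlations among members was not tested.

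Of the heart markers, Nppa and Tnni3 were near 0, with medians of 0.0275 and 0.0709 CPM. The 4 heart markers summed to a range of 4.04 to 77.6 CPM, of which Myh6 had a median of 13.1 CPM and Tnnt2 one of 2.35 CPM. Pln had r = 0.00753 with their score (adjusted p = 0.924, permutation). Markers of other cells also differed between the sexes (edgeR), where 55% of all genes were called. Of 5 adipocyte markers 4 were lower and 1 higher in males, with a median log2 difference of -0.49, while 3 of 3 endothelial, 3 of 4 smooth muscle and 2 of 3 erythroid markers were higher, with medians of 0.16, 0.11 and 0.21. Of 4 Schwann cell markers 1 was lower, and the 4 macrophage markers were not called (median log2 difference -0.04). The slow-fibre, adipocyte, macrophage, Schwann cell, erythroid, endothelial and smooth muscle scores were then put in the fit, without the fast-fibre and heart scores. The sex differences of the members kept their direction. On the log2 scale Sln stood at -0.52, Pln at 0.74, Ryr1 at 0.10, Cacna1s at -0.17 and Jph1 at 0.16.

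The genes with the highest r to each member over the whole table are given as a description. Among those nearest to Ryr1 were Atp2a1 (0.681) and Cacna1s (0.673). Cacna1s was nearest to Ryr1, Atp2a1 (0.609) and Myh4 (0.571), the myosin heavy chain of the fastest fibres. Stac3 was nearest to Ank1 (0.661), which encodes ankyrin 1, Scamp2 (0.564) and Szrd1 (0.556). Jph1 was nearest to Sox6 (0.582), a transcription factor that represses slow-fibre genes, Asph (0.580), whose locus also encodes the junctional protein junctin, and Tmem87a (0.548).

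Jph2 was nearest to the ceramide synthase gene Cers1 (0.676), Plpp7 (0.673) and Ctbp1 (0.649), and Cacnb1 to Rtn2 (0.615), Plpp7 (0.580) and Csnk1g2 (0.575). The genes nearest to Sln were Ndrg4 (0.404), Tecrl (0.395) and Tnni1 (0.350), the slow skeletal troponin I. The pattern of Pln was unlike any of these. Its nearest genes were Msl3l2 (0.445), Psap (0.373) and Popdc3 (0.348), all on chromosome 10 with Pln itself.

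The genes that varied with Pln lay around it on the chromosome. Of the 20 genes with the largest absolute r to Pln, 17 were on chromosome 10, and all 17 lay within 20 Mb of its start, a stretch that holds 1.05% of the genes tested. The strongest positive ones were Msl3l2, 2.77 Mb from the start of Pln, Psap (prosaposin) at 6.94 Mb and Popdc3 at -8.16 Mb, negative values lying on the side of lower coordinates. The strongest negative ones were Nepn (-0.412) at -0.949 Mb, Ascc1 (-0.407), Afg1l (-0.402) and Gopc (-0.400). Within 4 Mb of Pln, 44.4% of 18 genes had an absolute r of at least 0.2, against 0.372% of all genes.

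Of the 20 genes closest to each other member, 0 to 5 lay on its own chromosome. Ryr1 had the 5, of which 2 were within 20 Mb, and Stac3, which is also on chromosome 10, had 1. Cep85l, whose exons overlap those of Pln on the opposite strand, had r = 0.0541 with it. The remaining 3 of the 20 genes were Atp1b1 on chromosome 1 (0.284), Asb2 on chromosome 12 (-0.267) and Myl12a on chromosome 17 (0.267). No genotype was analysed here.

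**Figure D5:**
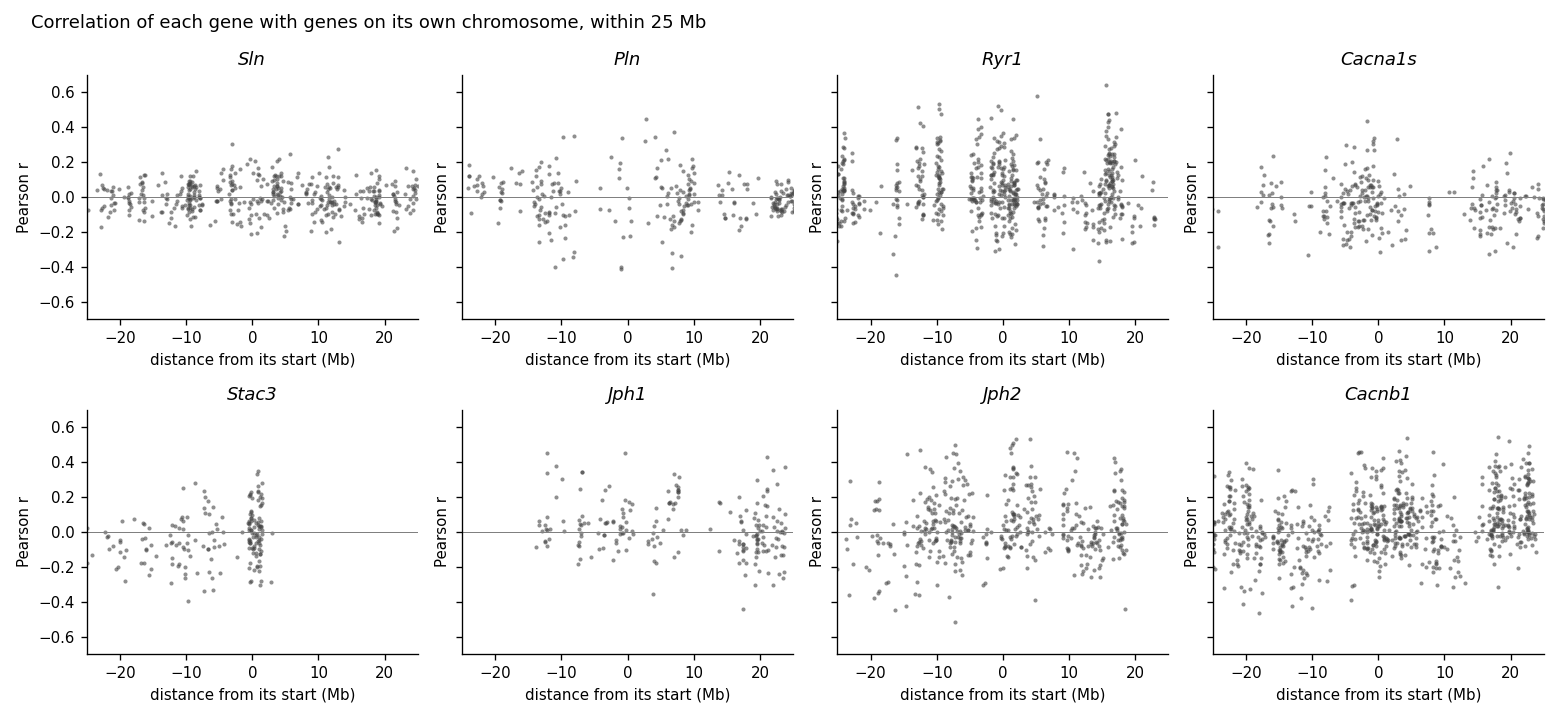
Pearson r (y) of each member with the other genes on its chromosome against distance from the member's start in Mb (x, negative values on the side of lower coordinates), one point per gene, over all libraries. Around Pln the values fan out to between -0.412 and 0.445 within 20 Mb and narrow beyond. Around the other members the strongest value within 4 Mb has an absolute r of 0.303 to 0.530.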

How the data were processed

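RNA of skeletal muscle was sequenced from 1 library per animal. The authors selected polyadenylated RNA, aligned the reads as single ends to a transcriptome holding the alleles of all 8 founder strains, and deposited the expected counts per gene that EMASE gave through GBRS. These are estimates, 67.33% of them whole. The authors also deposited a variance-stabilised (VST) score per gene made with DESeq2 (5.24 to 22.9 over the table). The build was GRCm38, and versions of their tools and the use of strand are not given in the sources used here. The depth was 35.9 to 165.7 M counts per library. Intervals of shares cover counting error only.

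Expected counts were rounded and tested with edgeR 4.0.16 (TMM factors 0.871 to 1.29, filterByExpr with a minimum count of 10, quasi-likelihood F-test), which kept 18823 genes and removed 1789. The covariates were sex and generation. Adjusted p-values (Benjamini-Hochberg over all genes tested) were called under 0.05. limma 3.58.1 tested the VST score and the spread between animals, and DESeq2 1.42.0 served as an alternative. R 4.3.3, Python 3.11.15 and scipy 1.17.1 were used. Correlations were taken on VST residuals with 100000 permutations. CPM are rounded counts over TMM-scaled totals. Marker scores are means over a list of VST scores standardised per gene, and marker sums are counts over total counts. The procedure was tested on simulated data of 3000 genes. For the sex-by-generation interaction edgeR recovered 20% of changes of 0.25 and 92% of changes of 0.5 on the log2 scale. Recovery was not tested separately for genes that vary between animals as widely as Sln and Pln.

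The genes named are the 8 members, Myh7, the pumps with Mrln and Strit1, the 5 other calcium-handling genes with the largest called sex difference, and the 3 genes with the highest r to each member, of which 1 is not reported here. The 4 heart markers and the genes that overlap a member are named too. Homer2, further genes with a large absolute r to Pln, and the Pln trough were chosen after values were seen. The members and lists were chosen with earlier results of these data known. Blocks are runs of consecutive library numbers, split at every 96 numbers. The wave of animals used as a covariate in the study's methods is not in the labels. Against the order of the sample list 4 columns are exchanged, and their names were taken as right. Alternatives changed the tool, the scaling, the filter, the covariates, the scale of the correlations and the libraries included.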

Additional observations from a re-analysis of the deposited data

How the results depend on the processing

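No paired analysis was possible because each animal gave 1 library and animal numbers are not shared between groups. Of the single-gene results of the members recomputed one choice at a time, 4 moved past the threshold, 3 fell short of it and all others kept their side of it. None of these that was called changed sign. The direction of 2 results that were never called turned, the Ryr1 difference between the sexes in slope on Myh7 (-0.0147 against 0.00476 with total scaling) and the Cacnb1 difference in spread (-0.00649 against 6.2e-06 with block removed). The count of members whose spread differed between the sexes was 1 on log2 CPM in place of 2. The correlation of Sln with Myh7 was 0.208 in block 4 alone (adjusted p = 0.0864, permutation) and past the threshold in every other alternative with a p. The correlation of Pln with Myh7 was less stable. It was 0.0612 with no covariate removed, 0.0907 in females, 0.0743 in block 1, 0.0872 in block 4 and -0.000633 in block 5, none past the threshold, and the cause was not tested. The member pairs past the threshold numbered 13 to 19 over the alternatives. Over all genes, interaction calls made up 0.531% by edgeR, 0% by limma (0 genes) and 0.275% under the stricter filter. Calls for a Myh7 slope that differs between the sexes made up 2.11%, 0.0903% and 0.850% in the same order, with the higher slope in males in 72.1%, 23.5% and 56.2% of them, and in 85.6% with total scaling. Calls for spread made up 5.55% on VST and 3.66% on log2 CPM. The stricter filter, a CPM of 1 reached by no fewer than 50% of libraries, left Sln untested. Depth limits Sln most, whose lowest libraries held 0 to 3 counts.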
